A study of Homo sapiens with 4 samples.

Results

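The 9 genes described here, which serve the epithelial cell surface, the tight junction and cell polarity, were MAL2, BCAM, CLDN1, OCLN, TJP1, F11R, CRB3, EPCAM and MUC1. They were chosen by name, with their change on VHL restoration already known, and MAL2 and BCAM were named for being among the strongest rises. The members' differences are therefore given as a description, with no test. Of the 9 genes, 8 were among the 12912 genes of the count table, and all 8 had enough counts to enter the fit over 12335 genes. OCLN, which encodes occludin, was not analysed here. In 786-O-VHL the mRNA of MAL2 and BCAM stood 8.34-fold and 9.63-fold above 786-O-Ctrl, CLDN1, TJP1, CRB3 and EPCAM stood 2.14-fold to 2.95-fold above it, and F11R and MUC1 lay slightly below it.

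Epithelial cells are joined near their apical end by tight junctions, in which claudins, occludin and junctional adhesion molecules span the membranes and the zonula occludens proteins tie them to actin. The Crumbs, Par and Scribble complexes set which side of the cell is apical and which is basolateral. In the kidney tubule these junctions separate urine from blood and, through the choice of claudins, set which ions pass between the cells. Clear cell renal carcinomas arise from tubule epithelium and have commonly lost VHL, the substrate receptor of the ubiquitin ligase that marks hypoxia-inducible factors for degradation when oxygen is present.

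786-O is an established human clear cell renal carcinoma line without functional VHL. The 786-O-Ctrl cells carried no added VHL and were labelled VHL-null. The 786-O-VHL cells were labelled as restored for VHL and, per the study's methods, received HA-tagged wild-type VHL from the retroviral vector pBabe-puro. Cells of both groups also carried a reporter construct joining GFP, luciferase and thymidine kinase, and both were grown in RPMI1640 with serum. Each group is 1 subline, so differences between the sublines other than VHL cannot be told apart from the effect of VHL. There were 2 libraries per group, and nothing in the labels says that they came from separate cultures, so p-values measure only the spread between these libraries. Both 786-O-Ctrl libraries bore the same number in the table and are called here the deeper and the shallower.

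Library totals lay between 2807779 counts in 786-O-VHL replicate 1 and 22141263 in the deeper 786-O-Ctrl library, and 3 counts, taken as the detection floor, corresponded to 0.142 to 1.02 CPM, that is counts divided by library size and brought to a common scale. VHL itself measured 42.9 and 43.9 CPM in 786-O-Ctrl against 178 and 163 CPM in 786-O-VHL, higher in the group labelled as restored (log2 fold change 1.96, SE 0.0706, edgeR FDR 2.86e-19). CPM here are scaled by edgeR's trimmed mean of M values (TMM), and means are given ± SD over the 2 libraries of a group. Of 9 renal epithelial markers 8 were in the table, and their summed level was 1243 to 1284 CPM in 786-O-Ctrl and 877 to 889 CPM in 786-O-VHL. LRP2, a defining marker of the proximal tubule, was not analysed here. PAX8, PAX2 and KRT8 of that list fell (log2 fold change -0.90, -0.40 and -0.56, FDR 1.32e-11, 0.00156 and 1.62e-08). CDH16 rose (log2 fold change 1.75, FDR 5.09e-11). Of the 8, 4 passed FDR under 0.05 as lower and 1 as higher, beside 31.9% lower and 32.6% higher over all genes tested. KRT8, at 755 ± 19.6 CPM in 786-O-Ctrl and 509 ± 45.5 CPM in 786-O-VHL, made up most of the summed level. Markers of other cell types were low. Of 6 fibroblast markers 2 were measured and summed to 7.11 to 7.17 CPM in 786-O-Ctrl and 8.49 to 9.50 CPM in 786-O-VHL, most of it COL1A1. Of 5 endothelial markers 3 summed to at most 1.33 CPM, and CD14, the leukocyte marker of 5 that was measured, reached at most 1.02 CPM. In bulk RNA a change in the number of cells that express a gene and a change in RNA per cell cannot be told apart.

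Promoter sequences from RefSeq (GRCh38.p14) were found for 6 of the 9 genes, BCAM, CLDN1, OCLN, TJP1, CRB3 and MUC1, and not for MAL2, F11R and EPCAM. The 250 bases before the start of transcription were searched on both strands for CAGGTG, which reads CACCTG on the other strand. It is the E-box bound by repressors of the SNAI and ZEB families. They were also searched for ACGTG, which reads CACGT on the opposite strand and is called here the hypoxia core. It is a form of the core of the site bound by hypoxia-inducible factors. The other form, GCGTG, was not searched for and is not marked. Promoters are shown here for a pair of genes with E-boxes and a pair without, and capitals mark every match. CRB3 is on the plus strand of chr19:6464021-6464270, MUC1 on the minus strand of chr1:155192916-155193165, BCAM on the plus strand of chr19:44808809-44809058 and CLDN1 on the minus strand of chr3:190322447-190322696.
CRB3: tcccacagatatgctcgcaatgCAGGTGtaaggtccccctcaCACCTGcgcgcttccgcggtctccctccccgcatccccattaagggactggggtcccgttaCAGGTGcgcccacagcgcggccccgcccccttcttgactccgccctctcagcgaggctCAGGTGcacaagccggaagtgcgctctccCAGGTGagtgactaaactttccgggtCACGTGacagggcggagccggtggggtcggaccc
MUC1: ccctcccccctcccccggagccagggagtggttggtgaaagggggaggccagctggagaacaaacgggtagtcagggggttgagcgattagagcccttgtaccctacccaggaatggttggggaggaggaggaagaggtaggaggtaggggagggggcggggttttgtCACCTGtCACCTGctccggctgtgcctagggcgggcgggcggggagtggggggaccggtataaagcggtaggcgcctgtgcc
BCAM: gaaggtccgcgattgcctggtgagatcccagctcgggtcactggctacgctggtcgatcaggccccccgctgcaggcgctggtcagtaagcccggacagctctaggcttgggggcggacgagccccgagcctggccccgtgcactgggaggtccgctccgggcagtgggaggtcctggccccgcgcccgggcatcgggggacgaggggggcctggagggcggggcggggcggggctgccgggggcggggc
CLDN1: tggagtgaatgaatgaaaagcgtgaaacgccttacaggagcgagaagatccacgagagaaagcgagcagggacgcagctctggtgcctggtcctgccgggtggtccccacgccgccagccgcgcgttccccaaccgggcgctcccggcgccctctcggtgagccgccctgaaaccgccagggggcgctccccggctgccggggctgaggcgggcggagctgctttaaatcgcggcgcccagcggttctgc

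CRB3 held 5 E-boxes in this window, a number reached or passed by 26 of 35116 windows of the same length (0.074%). It also held CACGTG, in which the cores of both strands overlap and count as 2 matches. MUC1 held 2 E-boxes a base apart, and 2 or more were found in 2.53% of all windows. BCAM and CLDN1 held neither of the motifs searched for. At least 1 E-box was present in 17.5% of all windows and at least 1 hypoxia core in 18.5%. Of the promoters not printed, the first of 4 TJP1 entries had 1 E-box and each of 2 OCLN entries had 1, the second with a hypoxia core as well. These matches are descriptions of the letters alone, and binding was not measured.

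The background against which the 8 genes are read is wide. In the edgeR quasi-likelihood test 4017 of 12335 genes (32.6%) passed FDR under 0.05 as higher in 786-O-VHL and 3939 (31.9%) as lower, or 7956 (64.5%) in either direction. Of the 8 members, 6 were higher by that criterion, while F11R and MUC1 did not pass it. Both 786-O-VHL libraries lay above both 786-O-Ctrl libraries for these same 6 genes, an arrangement found in 40.8% of all genes, and below them for F11R, found in 39.2%. Because this contrast chose the genes, nothing is read from those counts. The median log2 difference was 1.31 over the 8 genes and 0.02 over all genes tested.

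**Figure D1:**
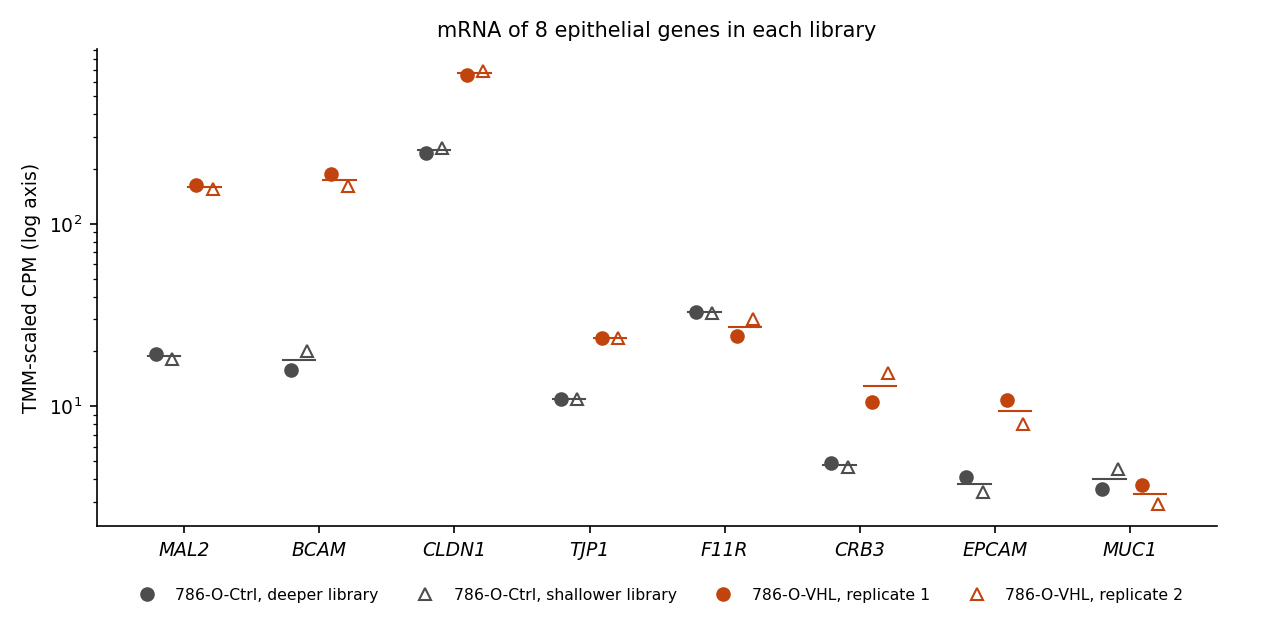
Level of each of the 8 genes in each of the 4 libraries, in TMM-scaled CPM on a log axis. Points are libraries and short lines are group means. The 786-O-VHL points stand above the 786-O-Ctrl points for MAL2, BCAM, CLDN1, TJP1, CRB3 and EPCAM, below them for F11R, and overlap them for MUC1.

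The tight junction genes differed among themselves. CLDN1 encodes claudin-1, a sealing strand protein (GRCh37, chr3:190023496-190040235, minus strand). It measured 245 and 262 CPM in 786-O-Ctrl and 655 and 690 CPM in 786-O-VHL. Every 786-O-VHL library was above every 786-O-Ctrl library, with means of 253 ± 12.1 and 672 ± 24.7 CPM and a log2 difference of 1.41 (SE 0.0630). F11R encodes junctional adhesion molecule A, which recruits the Par complex to new contacts (chr1:160965001-160991133, minus strand). It measured 33.0 and 32.6 CPM in 786-O-Ctrl and 24.4 and 30.1 CPM in 786-O-VHL, so that the groups did not overlap, but the gap was small beside the spread of 786-O-VHL (32.8 ± 0.344 against 27.3 ± 4.02 CPM). The log2 difference of F11R was -0.19 (SE 0.106), -0.43 without 786-O-VHL replicate 2 and -0.13 without 786-O-VHL replicate 1.

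TJP1 encodes ZO-1, the scaffold beneath the junction (chr15:29991571-30261118, minus strand). Its main identifier measured 11.01 and 11.03 CPM in the 786-O-Ctrl libraries and 23.7 and 23.6 CPM in 786-O-VHL, a log2 difference of 1.10 (SE 0.134) with almost no spread within groups. The table held a second TJP1 identifier, absent from the GRCh37 annotation, with 189 and 147 counts in 786-O-Ctrl against 46 and 331 counts in 786-O-VHL. That identifier rose from 9.37 ± 0.562 to 17.6 ± 2.86 CPM, a log2 difference of 1.00 (SE 0.152). Reads of the gene may have been divided between the identifiers, so the level of TJP1 is uncertain. With both summed, the log2 difference was 1.05 (SE 0.104).

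Among the polarity and apical trafficking genes, CRB3 encodes the Crumbs protein of most mammalian epithelia, which anchors PALS1 and PATJ at the apical membrane (chr19:6463788-6467232, plus strand). Its counts were low, with 103 and 70 in 786-O-Ctrl against 31 and 258 in 786-O-VHL. They correspond to 4.89 and 4.65 CPM and to 10.5 and 15.3 CPM. The groups did not overlap and the log2 difference was 1.56 (SE 0.191), with 1.13 remaining without 786-O-VHL replicate 2. CRB3 overlaps DENND1C and SLC25A23 on the opposite strand, and whether counting used strand is not given in the sources used here, so reads of these genes cannot be told apart where they overlap. DENND1C, a Rab exchange factor, also rose (5.64 ± 0.388 to 12.1 ± 1.24 CPM, log2 fold change 1.16, FDR 3.42e-06), whereas SLC25A23 did not pass the test (log2 fold change 0.13, FDR 0.0821). The part of DENND1C in the CRB3 counts was not tested.

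MAL2 encodes a membrane proteolipid needed for transcytosis, the route by which polarised cells carry proteins from the basolateral to the apical side (chr8:120177273-120257913, plus strand). It measured 19.4 and 18.3 CPM in 786-O-Ctrl and 164 and 155 CPM in 786-O-VHL. The groups were far apart relative to their spread (18.8 ± 0.810 against 159 ± 6.71 CPM), and the log2 difference of 3.06 (SE 0.0779) placed MAL2 at rank 128 of 12335 genes from the highest rise. The counts behind it were 409 and 275 for 786-O-Ctrl against 484 and 2605 for 786-O-VHL, so that even the shallowest library held more MAL2 counts than the deepest.

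Among the surface proteins, BCAM encodes the Lutheran glycoprotein, a basolateral receptor of the immunoglobulin superfamily that binds laminins containing the LAMA5 chain (chr19:45312328-45324678, plus strand). It measured 15.9 and 20.1 CPM in 786-O-Ctrl and 187 and 162 CPM in 786-O-VHL. The log2 difference was 3.27 (SE 0.0909), at rank 97 of all genes tested and above MAL2 at rank 128. Both were among the 360 genes (2.92%) that rose more than 4-fold at FDR under 0.01, which is the property they were named for. EPCAM encodes a homophilic adhesion molecule of epithelial cells (chr2:47572297-47614740, plus strand). It measured 4.08 and 3.39 CPM in 786-O-Ctrl and 10.9 and 8.02 CPM in 786-O-VHL, without overlap, from 86 and 51 counts and 32 and 135 counts, and the log2 difference was 1.20 (SE 0.230).

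MUC1 encodes a transmembrane mucin of the apical surface (chr1:155158300-155162707, minus strand). It measured 3.51 and 4.52 CPM in 786-O-Ctrl and 3.73 and 2.91 CPM in 786-O-VHL. The groups overlapped, and replicate 1 of 786-O-VHL, with 11 counts, lay within the range of 786-O-Ctrl. The log2 difference of -0.37 (SE 0.288) was -0.44 without 786-O-VHL replicate 1 and -0.09 without 786-O-VHL replicate 2. The annotation places another protein-coding gene over MUC1 and another over F11R on the same strand, neither of them in the table.

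**Figure D2:**
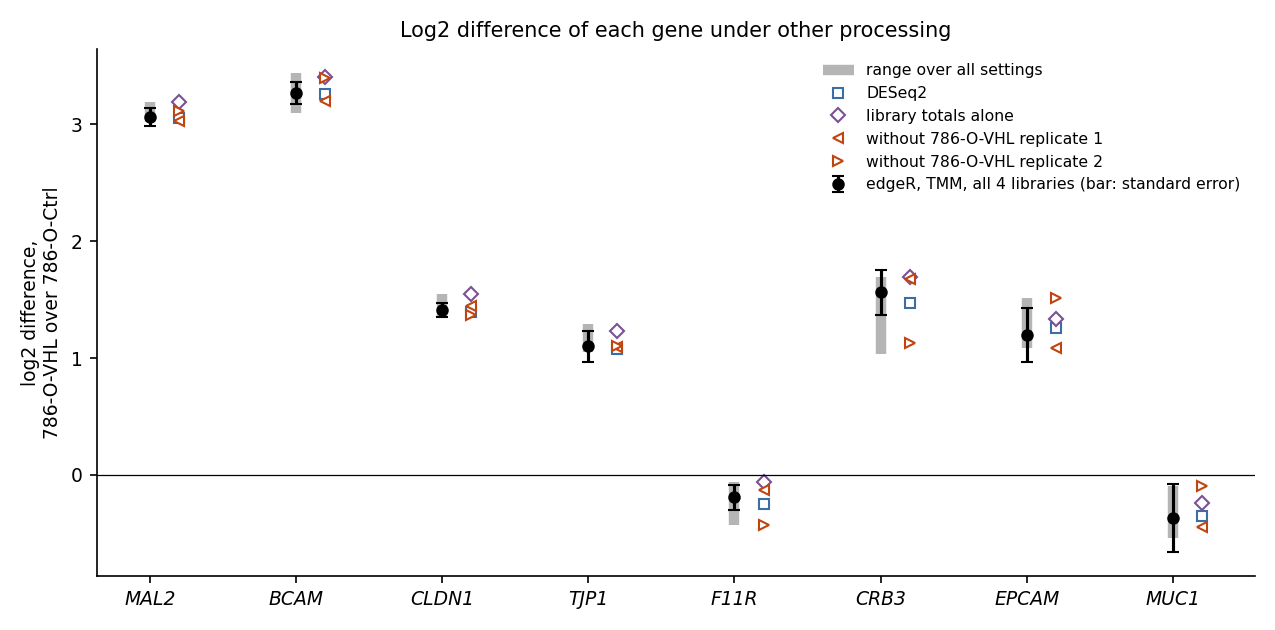
Log2 difference, 786-O-VHL over 786-O-Ctrl, for each of the 8 genes. Black points are edgeR estimates from all 4 libraries with standard errors, grey bars the range over all settings tried, and open symbols chosen settings. MAL2 and BCAM stay above 3 and the sign of every gene is the same under each setting.

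Per length of the union of annotated exons, the order of the 8 genes changed between the groups. In 786-O-Ctrl the levels in reads per kilobase of exon, scaled like CPM (RPKM) were 69.9 ± 3.33 for CLDN1, 6.48 ± 0.0679 for F11R, 5.48 ± 0.236 for MAL2, 3.59 ± 0.596 for BCAM, 2.98 ± 0.106 for CRB3, 1.67 ± 0.296 for MUC1, 1.54 ± 0.202 for EPCAM and 0.974 ± 0.00095 for TJP1. CLDN1 stood apart from the rest, while EPCAM and MUC1 overlapped. In 786-O-VHL the levels were 185 ± 6.82 RPKM for CLDN1, 46.4 ± 1.95 for MAL2, 34.9 ± 3.47 for BCAM, 8.07 ± 2.12 for CRB3, 5.39 ± 0.794 for F11R, 3.88 ± 0.826 for EPCAM, 2.09 ± 0.0106 for TJP1 and 1.38 ± 0.242 for MUC1. MAL2 and BCAM thus stood next to CLDN1, and F11R had passed from the second place to the fifth. With the length of the longest transcript instead, EPCAM and MUC1 exchanged places in 786-O-Ctrl, as did F11R and EPCAM in 786-O-VHL. The TJP1 levels here count its main identifier alone. They leave out the second, at 9.37 ± 0.562 CPM in 786-O-Ctrl and 17.6 ± 2.86 CPM in 786-O-VHL, so the place of TJP1 is uncertain.

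**Figure D3:**
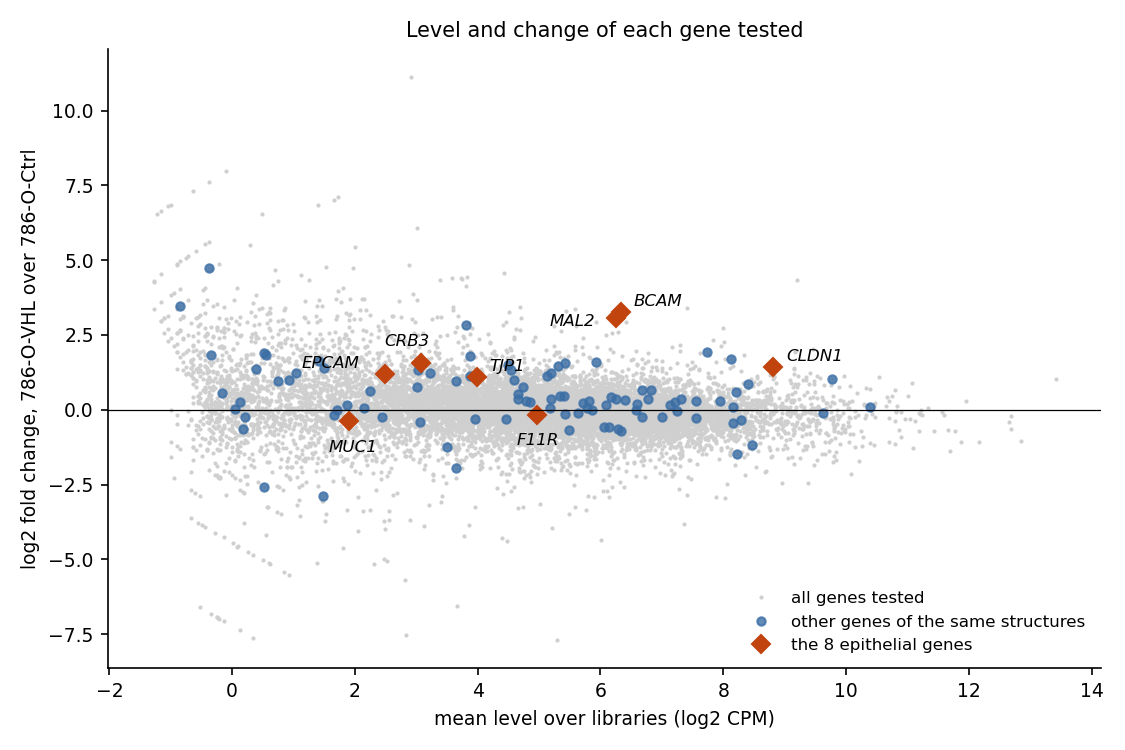
Mean level of each of 12335 genes over the libraries (log2 CPM) against its log2 fold change, 786-O-VHL over 786-O-Ctrl. Grey points are all genes, blue points other genes of the same structures and red diamonds the 8 members. MAL2 and BCAM lie at the upper edge of genes of like level, and F11R and MUC1 just under 0.

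The genes next to each member on the chromosome did not share a direction. Beside MAL2, CCN3, a matricellular protein gene 170.8 kb away, rose from 2.11 ± 0.496 to 10.6 ± 4.71 CPM (log2 fold change 2.10, FDR 3.58e-07), while COLEC10 had at most 5 counts in any library. Beside BCAM, the NF-kB cofactor gene BCL3 and the nectin gene NECTIN2 rose by 0.52 and 0.27 on the log2 scale, far less than BCAM. CLDN16 starts 0.1 kb from CLDN1 on the opposite strand and is described with the claudins. Beside EPCAM, CALM2, a calmodulin gene, rose (log2 fold change 0.52, FDR 1.49e-08). Beside F11R, SLAMF7, a lymphocyte receptor gene, fell from 20.98 ± 0.868 to 0.793 ± 0.642 CPM (log2 fold change -4.23, FDR 8.71e-15). USF1 on the other side of F11R did not pass the test (log2 fold change -0.06, FDR 0.581). THBS3, 2.7 kb from MUC1, rose (log2 fold change 1.10, FDR 6.19e-06), while KRTCAP2, on its other side, did not pass (log2 fold change -0.41, FDR 0.296). The neighbours of TJP1, HERC2 and GOLGA8H, did not pass either (FDR 0.119 and 0.141), at distances of 1424.2 and 635.1 kb. P3H2, a collagen prolyl hydroxylase gene beside CLDN1, rose by 0.16 on the log2 scale (FDR 0.0314).

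The genes most alike to MAL2 and BCAM across the 4 libraries were sought by the Euclidean distance between log2 CPM values (prior count 2) centred on each gene, which describes 4 points that share their library sizes. Those nearest to MAL2 were COL14A1, a fibril-associated collagen gene, at a distance of 0.0768, POU5F1B at 0.0991 and BAIAP2L2, a gene of microvillus architecture, at 0.152. COL14A1 went from 3.21 ± 0.222 to 28.8 ± 0.0653 CPM and, like MAL2, lies on chr8. POU5F1B, also on chr8, had no count in either 786-O-Ctrl library and 3 and 17 counts in 786-O-VHL. The prior count set its values in 786-O-Ctrl, so its distance to MAL2 depends on that choice. The fitted log2 difference of POU5F1B was 6.83 (SE 1.23), from a group at 0 where the fit is no bound, beside 3.06 for MAL2. BAIAP2L2 lies on chr22. The log2 differences of COL14A1 and BAIAP2L2 were 3.15 and 3.09. Nearest to BCAM were PLAAT4 at 0.170, PODNL1 at 0.189 and PTGIS, the prostacyclin synthase gene, at 0.199, with log2 differences of 3.45, 3.35 and 3.44. They lie on chr11, chr19 and chr20, and BCAM itself lies on chr19.

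Beyond the 8 genes, 137 other genes of the same structures were listed by role. These lists too were drawn up with earlier results of these data known. Of the 98 in the table, 94 were tested, and 53 rose, 18 fell and 23 did not pass at FDR under 0.05, beside shares over all genes of 32.6% higher and 31.9% lower, against which the counts of each list below are also to be read. Their median log2 fold change was 0.30, beside 0.02 over all genes.

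**Figure D4:**
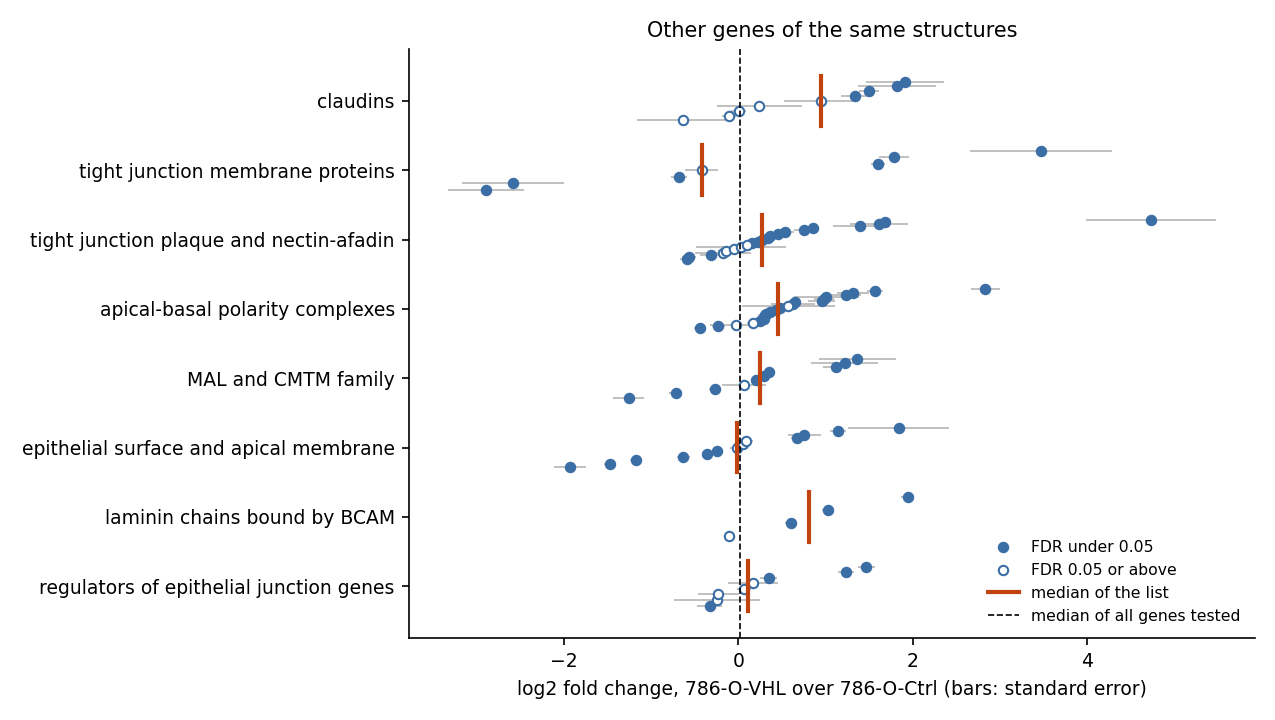
Log2 fold change, 786-O-VHL over 786-O-Ctrl, of every tested gene of 8 lists, with standard errors. Filled points passed FDR under 0.05, open points did not, red lines are list medians and the dashed line is the median of all genes. The polarity list lies mostly to the right of 0, whereas the membrane and surface lists hold genes far out on both sides.

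Claudins other than CLDN1 divided into rises and genes that did not pass. Of 22 listed, 9 were tested, 4 rose and 5 did not pass, with a median log2 fold change of 0.95. CLDN15, which forms cation pores, rose from 13.1 ± 0.903 to 37.5 ± 0.255 CPM (log2 fold change 1.502, SE 0.117, FDR 5.31e-12). CLDN2, the cation and water pore of the proximal tubule, rose (log2 fold change 1.34, FDR 7.22e-08), but its 786-O-VHL replicates lay apart, at 58.0 and 30.8 CPM against 16.1 and 13.6 CPM in 786-O-Ctrl. CLDN16, a magnesium pathway claudin of the thick ascending limb, and CLDN9 rose from below 1 CPM (log2 fold change 1.91, FDR 0.000523, and 1.82, FDR 0.000851). CLDN16 had 17 and 6 counts in 786-O-Ctrl against 4 and 45 in 786-O-VHL. It starts 0.1 kb from the far higher CLDN1, and whether CLDN1 reads entered these counts was not tested. The call of CLDN16 was lost without 786-O-VHL replicate 2 (FDR 0.405, lowest over libraries left out 0.000355) and with DESeq2 (FDR 0.0520). CLDN4 measured 97.6 and 93.4 CPM in 786-O-Ctrl and 74.3 and 105 CPM in 786-O-VHL (log2 fold change 0.01, FDR 0.957). Its 786-O-VHL libraries fell on either side of 786-O-Ctrl, and without 786-O-VHL replicate 2 it was lower (log2 fold change -0.37, FDR 0.00431).

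CLDN12 had a log2 fold change of -0.11 (FDR 0.248), and CLDN3, CLDN7 and CLDN18, each under 3 CPM in every library, had 0.95, 0.24 and -0.63 (FDR 0.05002, 0.679 and 0.303). Per length CLDN1 was the leading claudin in both groups. CLDN4 came second, at 20.3 ± 0.641 RPKM in 786-O-Ctrl and 19.1 ± 4.60 RPKM in 786-O-VHL. CLDN15 and CLDN2 reached 13.0 and 13.0 ± 5.65 RPKM in 786-O-VHL, close to each other and, by group means, under CLDN4. The spreads of CLDN2 and CLDN4 in 786-O-VHL overlapped.

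**Figure D5:**
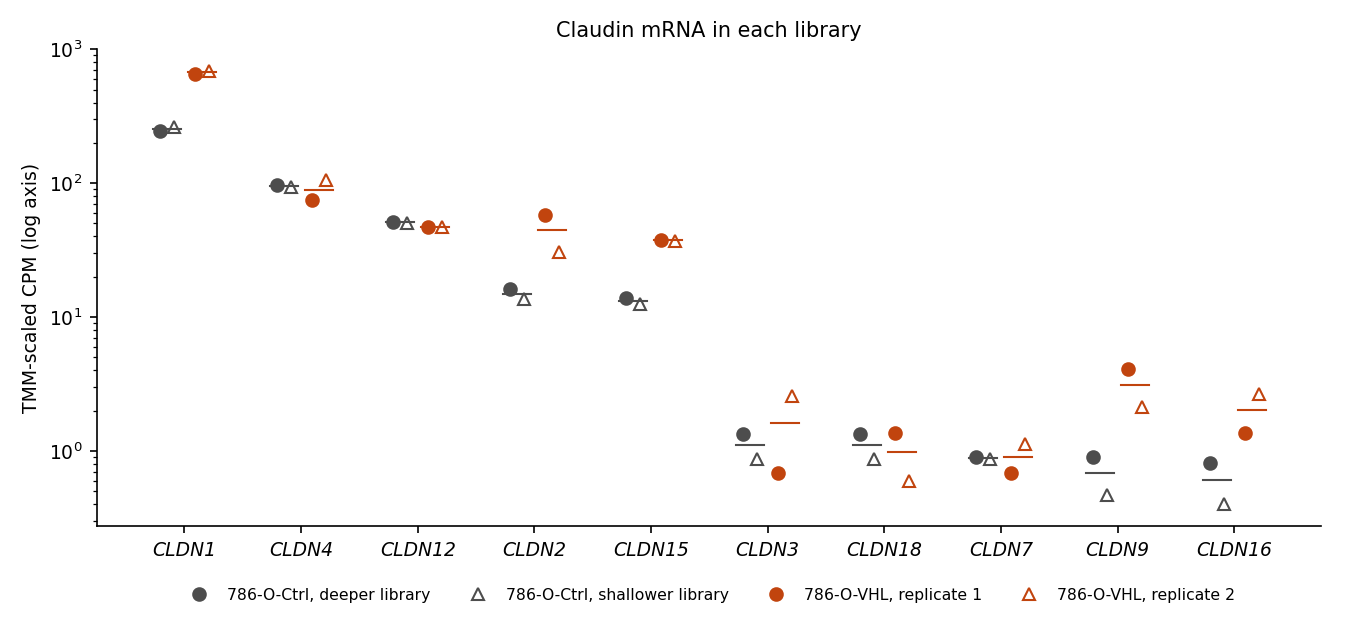
Level of each measured claudin in each library, in TMM-scaled CPM on a log axis, ordered by the 786-O-Ctrl mean (short lines). CLDN1 leads in every library, CLDN2 and CLDN15 rise without overlap, and the points of CLDN4, CLDN3, CLDN18 and CLDN7 overlap between groups.

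The other membrane proteins of the junction moved in opposite directions. Of 10 listed, 7 were tested, of which 3 rose, 3 fell and JAM2 did not pass (log2 fold change -0.42, FDR 0.0552). LSR, which organises contacts where 3 cells meet, rose from 33.3 ± 2.02 to 102 ± 2.35 CPM (log2 fold change 1.60, SE 0.0767, FDR 1.41e-16). CXADR, the coxsackievirus and adenovirus receptor, rose from 7.85 ± 1.30 to 29.8 ± 9.20 CPM (log2 fold change 1.78, FDR 4.14e-10). IGSF5, or JAM4, passed the test with 3 counts over the 786-O-Ctrl group and 20 over 786-O-VHL, a ratio of 12.2 with an exact 95% interval of 3.61 to 63.9 that covers counting error only. ESAM and JAM3, junction proteins best known from endothelium, fell (log2 fold change -2.90, FDR 1.38e-06, and -2.58, FDR 0.000377). JAM3 had 34 and 32 counts in 786-O-Ctrl against 0 and 6 in 786-O-VHL, and its fitted log2 fold change ranged from -7.59 (without 786-O-VHL replicate 2, where the group is at 0 and the fit is no bound) to -2.35 (without 786-O-VHL replicate 1). The endothelial marker PECAM1 had at most 9 counts in any library. ILDR2 fell from 52.6 ± 0.0946 to 31.7 ± 3.11 CPM (FDR 2.09e-07). The median of the list was -0.42, and 0.43 when MARVELD2, at no more than 13 counts, was kept by leaving out the filter.

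Of 21 plaque and nectin-afadin genes 13 rose, 3 fell and 5 did not pass, with a median log2 fold change of 0.27. ARHGEF2, the exchange factor GEF-H1 that cingulin holds at the junction, rose from 139 ± 4.08 to 447 ± 13.5 CPM (log2 fold change 1.68, SE 0.0635, FDR 7.73e-19). TJP3, which encodes another zonula occludens protein, had 2 counts over 786-O-Ctrl and 33 over 786-O-VHL, a ratio of 30.1 (exact 95% interval 7.70 to 259). Cingulin, CGN, rose (log2 fold change 1.61, FDR 0.000134) while its paralog CGNL1 fell (log2 fold change -0.57, FDR 2.95e-07). The call of CGN was lost without 786-O-VHL replicate 2 (FDR 0.413, lowest over libraries left out 2.07e-05). NECTIN1 and MAGI3 fell by 0.59 and 0.32 on the log2 scale, MAGI3 losing its call under 5 of the settings tried. Without 786-O-VHL replicate 2 the list had 8 rises rather than 13.

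Of 28 listed genes of the polarity complexes 22 were tested. Among these 17 rose, 2 fell and 3 did not pass, beside 32.6% higher and 31.9% lower over all genes. Their median log2 fold change was 0.45. The rises numbered 12 without 786-O-VHL replicate 2, 13 with DESeq2 and 18 with library totals. Many of these rises were small, and PALS1 and PATJ, the partners of CRB3, rose by 0.31 and 0.47 on the log2 scale (FDR 0.00160 and 4.89e-05), and PARD3 by 0.29 (FDR 0.000175). The largest belonged to DLG3, a membrane-associated guanylate kinase, which measured 4.89 and 3.46 CPM in 786-O-Ctrl and 33.2 and 29.4 CPM in 786-O-VHL (log2 fold change 2.83, SE 0.163, FDR 8.98e-15). DLG4 rose from 24.1 ± 0.0461 to 72.8 ± 4.97 CPM (log2 fold change 1.56, FDR 6.34e-15). Both are best known as scaffolds of neuronal synapses. PARD3B, a Par-3 relative, rose by 1.31 (FDR 4.67e-07). CDC42, the GTPase that activates the Par complex, fell from 325 ± 0.673 to 240 ± 7.32 CPM (log2 fold change -0.44, FDR 5.23e-07), and LLGL1 fell by 0.23 (FDR 0.0113). The call of LLGL1 was lost without the deeper 786-O-Ctrl library (FDR 0.156, lowest over libraries left out 0.000595).

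The relatives of MAL2 moved in both directions. Of 12 MAL and CMTM family genes listed, 10 were tested. Of these, 6 rose, 3 fell and CMTM1 did not pass, with a median log2 fold change of 0.25. MAL, the founding member, rose by 1.36 (FDR 0.00826) from 14 and 13 counts in 786-O-Ctrl. PLLP, plasmolipin, rose from 10.3 ± 1.52 to 22.5 ± 1.22 CPM (log2 fold change 1.12, FDR 1.30e-07), and CMTM8 rose by 1.22 (FDR 0.00752). MALL fell from 14.2 ± 0.292 to 5.88 ± 0.163 CPM (log2 fold change -1.26, FDR 5.05e-07), and CMTM6, which stabilises PD-L1 at the cell surface, fell by 0.72 on the log2 scale (FDR 2.90e-09). MYADM fell by 0.27 (FDR 0.000664). Of this list's rises, 2 were called by DESeq2 and 2 without the deeper 786-O-Ctrl library. MAL and CMTM8 lost their calls under both.

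At the epithelial surface and apical membrane, 13 of 25 listed genes were tested. Of these, 4 rose, 6 fell and 3 did not pass, with a median log2 fold change of -0.02. MYO5B, the motor of apical recycling, rose from 23.7 ± 0.639 to 52.0 ± 0.576 CPM (log2 fold change 1.14, FDR 2.62e-11). SPINT1, an inhibitor of surface serine proteases, rose by 0.76 (FDR 0.000761). CEACAM1 rose by 1.84 (FDR 0.00681) from 5 and 7 counts in 786-O-Ctrl, a call lost with DESeq2 (FDR 0.116), without 786-O-VHL replicate 2 (FDR 0.162) and without the deeper 786-O-Ctrl library (FDR 0.150), with a lowest FDR of 0.0154 over libraries left out. SDC1, the epithelial syndecan, fell from 421 ± 22.7 to 151 ± 2.51 CPM (log2 fold change -1.47, FDR 4.44e-17). EZR, the linker of microvilli to actin, fell from 476 ± 20.3 to 209 ± 12.9 CPM (log2 fold change -1.18, FDR 4.93e-15). PROM2, a protein of membrane protrusions, fell from 17.0 ± 0.655 to 4.04 ± 0.918 CPM (FDR 3.64e-10). CD24 and PODXL, apical glycoproteins, did not pass (FDR 0.410 and 0.875).

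The laminin chains that make the ligands of BCAM were measured beside the receptor. LAMA5, the chain that BCAM binds, measured 98.7 and 89.2 CPM in 786-O-Ctrl and 407 and 330 CPM in 786-O-VHL (log2 fold change 1.94, SE 0.0786, FDR 3.75e-18). LAMB1 rose from 583 ± 14.6 to 1185 ± 14.5 CPM (log2 fold change 1.02, FDR 1.03e-14) and LAMB2 by 0.60 on the log2 scale (FDR 2.82e-09). LAMC1 measured 814 ± 0.782 and 754 ± 28.4 CPM and did not pass (FDR 0.123). Thus 3 of the 4 chains rose, by less than BCAM itself.

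Of 15 transcriptional regulators of epithelial junction genes listed, 8 were tested, of which 3 rose, 1 fell and 4 did not pass. ELF3, an epithelial Ets factor, rose from 23.9 ± 0.0747 to 56.9 ± 2.08 CPM (log2 fold change 1.23, FDR 3.45e-12). SNAI2 and ZEB1, which are known to repress epithelial genes through E-boxes of the kind marked above, rose as well. SNAI2 measured 21.4 and 25.6 CPM in 786-O-Ctrl and 59.4 and 66.6 CPM in 786-O-VHL (log2 fold change 1.47, SE 0.0980, FDR 2.20e-13). ZEB1 rose by 0.35 (FDR 0.00250), a call lost with DESeq2 (FDR 0.0683) and without the deeper 786-O-Ctrl library (FDR 0.108, lowest over libraries left out 0.00266). SNAI1 passed narrowly (log2 fold change -0.33, FDR 0.0475), and its call was lost whichever library was left out (FDR 0.0688 to 0.291).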

How the data were processed

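RNA was sequenced in 4 libraries, 2 of each subline. The authors deposited raw counts per gene; CASAVA and STAR appear in the submitters' processing notes and reads were aligned to hg19, while the counting tool, its annotation and its use of strand were not given in the sources used here. For a symbol with several identifiers, that with the most counts was used. Genes passing filterByExpr (minimum count 10) were fitted with edgeR 4.0.16 (R 4.3.3, limma 3.58.1) by TMM scaling and the quasi-likelihood test of group, all 4 libraries, with Benjamini-Hochberg FDR over 12335 genes; 577 were removed. An exact permutation test of 2 against 2 libraries cannot go below 0.333. Replicates differed beyond sampling noise (chi-square per degree of freedom 2.24 and 2.73). RPKM divided CPM by GENCODE v44 lengths on GRCh37, which held 12749 of 12912 identifiers. Counts were also simulated with these library totals and a single dispersion (spread between replicates) of 0.005, with 200 genes changed among 12335. Of those 200, 181 were recovered, with 8 false calls. Far fewer genes changed there than the 7956 called in the data, so these rates need not hold for this comparison.

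The members and lists were chosen with earlier results of these data known. Genes named were the members, VHL, all claudins, at most 3 per direction of each other list by fold change among those past FDR 0.05, the nearest measured gene on each side of a member, and the 3 genes most like MAL2 and BCAM. A few others (PALS1, PATJ, PARD3, JAM2, CMTM1, CD24, PODXL and marker genes) were named after their values were seen, and a few genes that the rule or the lists hold are not reported here. Alternatives were DESeq2 1.42.0, RLE scaling, library totals, no filter, at least 10 counts in every library, thinning to the shallowest library, leaving out each library and, added after seeing the data, summing both TJP1 identifiers.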

Additional observations from a re-analysis of the deposited data

How the results depend on the processing

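The 6 members that were higher stayed so under every alternative, and no member changed sign. F11R passed as lower without 786-O-VHL replicate 2 alone, so the members called lower ranged from 0 to 1 with a library left out. Scaling by library totals moved the median of all genes by 0.133 on the log2 scale and gave 5077 higher and 3097 lower calls instead of 4017 and 3939. DESeq2 gave 2816 and 3150, thinning 2823 and 2855, and leaving out libraries 2903 to 4127 and 3125 to 4082. Rising claudins fell to 2 with at least 10 counts in every library and to 2 with thinning, falling junction membrane genes to 1 with at least 10 counts, rising plaque genes to 7 with thinning and falling polarity genes to 1 with library totals. Rising MAL and CMTM genes fell to 2 with DESeq2 and 3 with thinning, and falling regulators to 0 with DESeq2, library totals or thinning. With a library left out, claudins called lower ranged from 0 to 1, laminin chains called lower from 0 to 1, rising plaque genes from 8 to 13, falling polarity genes from 1 to 2, rising MAL and CMTM genes from 2 to 5, and falling regulators stayed at 0. CLDN4 turned negative with DESeq2 (-0.10), RLE (-0.0092), no filter (-0.0041) and thinning (-0.086), and ranged from -0.37 to 0.13 with a library left out. CLDN12 turned positive with library totals (0.023). CLDN3 (-0.73 to 1.27), CLDN7 (-0.39 to 0.35) and CLDN18 (-0.92 to 0.26) changed sign with a library left out, each without 786-O-VHL replicate 2. The cause of these changes was not tested, apart from fewer genes or reads under the stricter filter and thinning. Among all named genes other than the members 29 fits lost a call and 2 gained one, with direction kept. The gains were of CLDN3 as a rise, with library totals (log2 fold change 1.08) and without 786-O-VHL replicate 1 (log2 fold change 1.17). No paired analysis was possible because both 786-O-Ctrl columns carry the same replicate number.

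Precision was limited by the 2807779 counts of 786-O-VHL replicate 1, in which 3 counts equal 1.02 CPM.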
